A study of Homo sapiens with 6 samples.

Results

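Tight junctions and desmosomes join neighbouring epithelial cells. A tight junction seals the space between cells through claudins, MARVEL proteins (occludin and its relatives) and junctional adhesion molecules (JAMs) in the membrane, which scaffold proteins tie to actin, while polarity proteins set the junction's place at the border of the apical membrane. A desmosome is a spot weld. Its cadherins, the desmogleins and desmocollins, bind those of the next cell, and its plaque, made of plakoglobin, plakophilins and desmoplakin, ties them to keratin filaments. Periplakin and envoplakin are plaque relatives of desmoplakin that are also part of the cornified envelope of squamous cells. Cells that take on mesenchymal features usually lose these junctions, and ZEB and SNAI factors are known repressors of such genes.

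The genes described here are 43 named junction genes, taken from the 39739 gene rows of RNA-seq tables by an exact match of the gene symbol to a list of junction genes. They comprise 27 tight junction genes, 15 desmosome and cornified plaque genes, and *EPCAM*, an epithelial adhesion molecule. The 6 libraries came from HGC27, an established human gastric cancer cell line. In 3 libraries the *FN1* 3′-UTR was stably overexpressed after lentiviral infection and puromycin selection (HGC27-FN1 3′-UTR cells), and 3 libraries were labelled Control (HGC27-control cells). The sources used here do not say whether the 3 libraries of a group came from separate cultures, how many clones a line holds or what the control cells carried, so p-values measure the spread between these libraries, which may be technical. In these bulk samples, fewer cells that make a transcript and less of it per cell cannot be told apart.

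Between 16357085 and 37037532 reads per library were assigned to genes. Levels are in RPKM (reads per kilobase of merged exons, scaled to 1000000 assigned reads), which can be compared between genes. *FN1*, whose 3′-UTR was overexpressed, was at 0.777, 0.745 and 0.819 RPKM in HGC27-FN1 3′-UTR replicates 1 to 3 and at 0.543, 0.474 and 0.532 RPKM in the HGC27-control replicates. All 3 values were above the control values (log2 fold change 0.52, SE 0.11, limma adjusted p = 0.0292), but the adjusted p lay between 0.0645 and 0.103 when any single library was left out, and blocking on replicate number gave 0.0852. The *FN1* row covers all merged exons of the gene and not the 3′-UTR alone. Of the 12 mesenchymal markers examined, 6 were higher in limma, with *FN1* itself among them, and are given with the other marker lists below. *VIM* (vimentin) was at 304 ± 13.5 and 303 ± 19.6 RPKM (SD, n = 3) and *ZEB1*, a repressor of epithelial genes, at 14.9 ± 0.647 and 14.8 ± 0.485 RPKM, each with the HGC27-FN1 3′-UTR value first. The glandular epithelial markers of a gastric cell were low in HGC27-control cells, with *CDH1* (E-cadherin) at 0.126 ± 0.0276 RPKM (SD, n = 3), *KRT18* at 0.179 ± 0.0265 RPKM and 3 of 25 markers at 0 reads in all 3 libraries.

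Promoter sequence (RefSeq, GRCh38.p14, 300 bases that span the gene start and lie mostly before it) was matched for 29 of the 43 genes. The E-box CAGGTG, read on both strands, is the letter pattern that ZEB and SNAI factors are known to bind. It was present in 11 of the 29 windows, and in 20.6% of all 35116 promoter windows of this length. The grainyhead pattern AACCNGTT, read on both strands, was present in 1 of the 29 and in 1.73% of all windows. A grainyhead match can share the letters CAGGT with an E-box, and the *CGN* window held no E-box. The stretches around some of these matches are shown for genes whose levels are given in full below, in the direction of the gene, with the matching letters in capitals:
*CGN*, grainyhead pattern, chr1:151511348-151511377, forward strand: ccgcagcggagtAACAGGTTggtgggaggg
*CLDN6*, E-box, chr16:3018134-3018163, reverse strand: ttatctccttcgCAGGTGagtccggggcta
*OCLN*, E-box, chr5:69492502-69492531, forward strand: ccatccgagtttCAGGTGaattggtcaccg
*TJP1*, E-box, chr15:29969120-29969149, reverse strand: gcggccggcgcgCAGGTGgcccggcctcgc
*DSP*, E-box, chr6:7541574-7541603, forward strand: gaagaaaccggcCAGGTGtggcctaggcgc
*DSG2*, E-box, chr18:31497933-31497962, forward strand: acgtcacggtccCAGGTGcgagtgcgagcg
*DSP*, *DSG2* and 2 polarity genes held more than 1 E-box, with 5 in *CRB3* and 3 in *PATJ*. A match is a stretch of letters and not evidence of binding. Among genes with a match and an adjusted p under 0.05 in the test given below, *CLDN6* rose and *CGN* and *DSP* fell.

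The libraries were compared with limma on log2(RPKM + 0.1), and 28 of the 43 genes reached 0.1 RPKM in at least 3 libraries and were tested among 23299 genes. In HGC27-FN1 3′-UTR cells, 6 of the 28 rose and 3 fell at an adjusted p under 0.05. Over all tested genes, 5.62% were higher and 7.36% were lower by this rule. *DSG2* was the most abundant at 19.2 RPKM over the 6 libraries, and *PARD3* (14.0 RPKM), *DSP* (12.5 RPKM), *PKP4* (9.10 RPKM), *CGN* (8.49 RPKM), *TJP1* (7.43 RPKM) and *JAM3* (5.49 RPKM) followed. In that order *PARD3* and *DSP*, *PKP4* and *CGN*, and *CGN* and *TJP1* overlapped in their range over libraries, whereas *DSG2* lay above all others in every library. In all, 17 of the 43 genes had a mean of at least 1 RPKM.

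**Figure D1:**
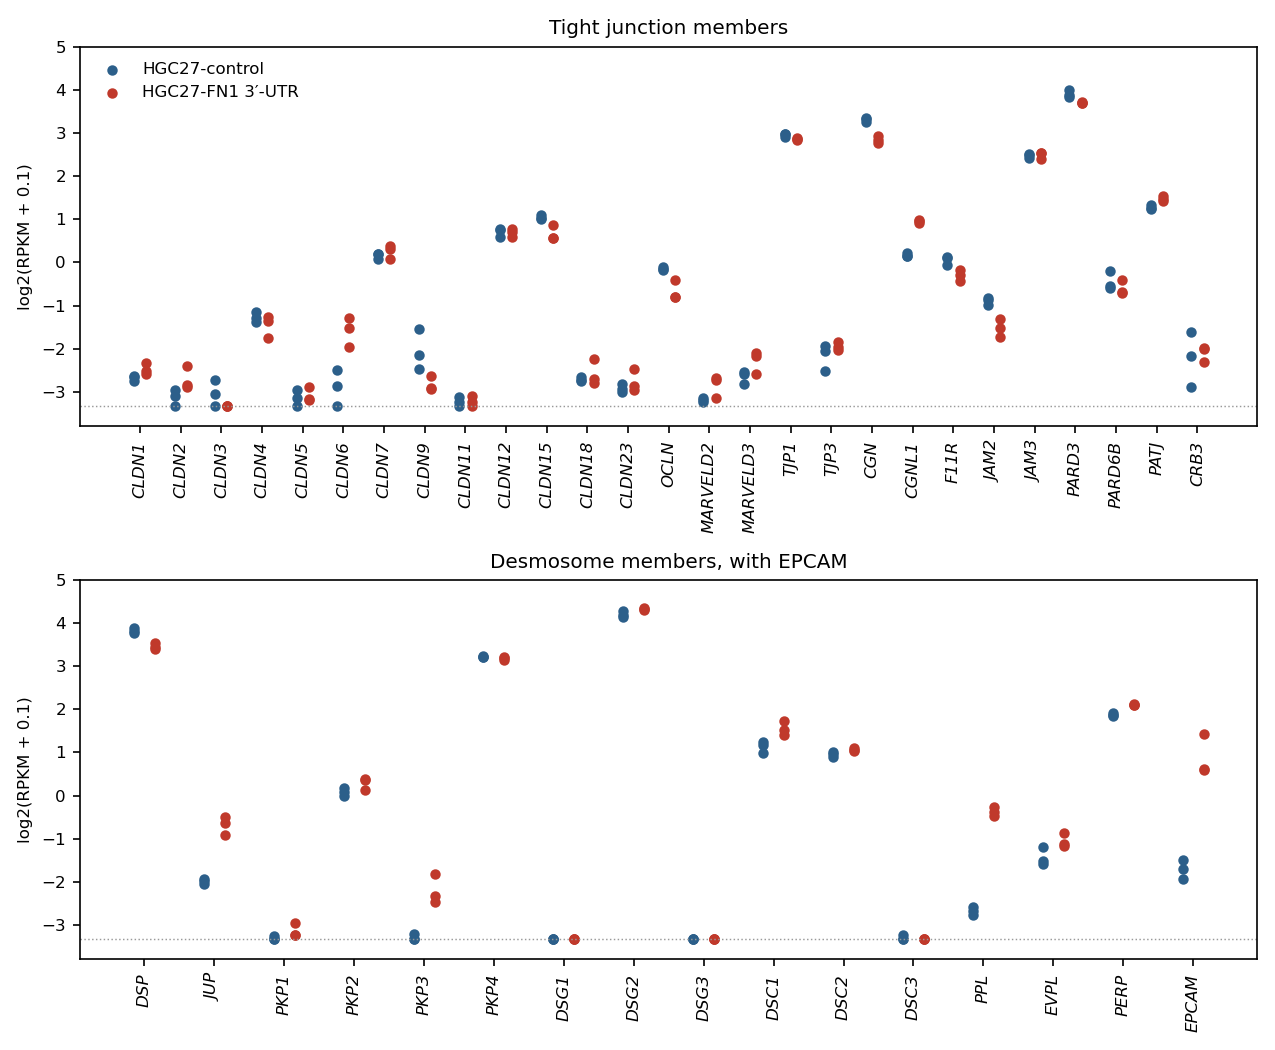
Level of each of the 43 genes as log2(RPKM + 0.1) in each library, with HGC27-control cells in blue and HGC27-FN1 3′-UTR cells in red. The dotted line marks 0 reads. *DSG2* is highest at 17.7 to 20.2 RPKM, and *DSG1* and *DSG3* lie on the dotted line in all 6 libraries.

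Among the 27 tight junction genes, 17 were tested. *CLDN6* and *CGNL1* were higher, *CGN* and *PARD3* were lower, and 13 did not pass the test. This was 11.8% in each direction, resting on 2 genes each. The median log2 fold change of the 17 was -0.09, and that of all tested genes was -0.04. *CLDN6* reached the minimum level only through the HGC27-FN1 3′-UTR libraries. By the study's criteria for differentially expressed genes (DEGs; absolute log2 fold change above 1 and unadjusted P under 0.05), 1 of the 17 was upregulated and 0 were downregulated, where 1.65% and 0.815% of all tested genes were. In limma, 3 tight junction genes were higher and 6 lower at an unadjusted p under 0.05 at any fold. By limma's voom on reads recovered from the RPKM, *CLDN6*, *CGNL1* and *PATJ* were higher and 6 genes lower at an adjusted p under 0.05. The shares of all tested genes under these rules were not computed, so none of these counts can be set against a background.

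Claudins are the four-pass membrane proteins that form the strands of the tight junction. Of 13 claudins, 5 were tested, 3 (*CLDN7*, *CLDN12* and *CLDN15*) were above 1 RPKM in both groups, and 5 stayed under 0.1 RPKM in every library. *CLDN6*, a claudin of embryonic epithelium on chromosome 16 (3014712 to 3020071, reverse strand), was at 0.246, 0.306 and 0.158 RPKM in HGC27-FN1 3′-UTR replicates 1 to 3 and at 0, 0.0373 and 0.0776 RPKM in HGC27-control replicates. These values rest on 7, 13 and 8 reads against 0, 2 and 5 reads. The groups did not overlap, and *CLDN6* was higher in HGC27-FN1 3′-UTR cells (log2 fold change 1.30, SE 0.31, limma adjusted p = 0.0444). The call was lost with any single library left out (adjusted p from 0.0634 to 0.137) and under the replicate block (0.110). *CLDN6* shares 8.01% of its 50-base stretches with other genes, *CLDN9* among them, and overlaps over 40 exonic bases with *TNFRSF12A* on the opposite strand, which was at 10.6 to 11.2 RPKM in HGC27-FN1 3′-UTR cells and 7.23 to 9.03 RPKM in HGC27-control cells. Whether the counting used strand is not given in the sources used here, and the part of this overlap in the result was not tested.

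*CLDN1*, a claudin of many barrier epithelia, was at 0.1001, 0.0671 and 0.0748 RPKM in HGC27-FN1 3′-UTR cells and at 0.0489, 0.0620 and 0.0590 RPKM in HGC27-control cells. It rested on 20 against 19 reads, a rate ratio of 1.36 (95% interval 0.687 to 2.69, counting error only), and did not reach the minimum level. All HGC27-FN1 3′-UTR values of *CLDN1* were above the control values. *CLDN18*, the claudin of stomach epithelium, was at 17 against 18 reads in all, a rate ratio of 1.22 (95% interval 0.589 to 2.50, counting error only). *CLDN9*, whose gene lies next to *CLDN6*, rested on 6 against 25 reads, a rate ratio of 0.309 (95% interval 0.104 to 0.772, counting error only). In the other direction, *CLDN2* rested on 12 against 5 reads, a rate ratio of 3.09 (95% interval 1.01 to 11.2, counting error only). *CLDN9* and *CLDN2* were picked out after their values were seen and did not reach the minimum level. The 4 other tested claudins lay between -0.38 (*CLDN15*, limma adjusted p = 0.0638) and 0.10 (*CLDN7*, 0.592) in log2 fold change. *CLDN15* was below the control libraries in all 3 HGC27-FN1 3′-UTR libraries, while *CLDN4*, *CLDN7* and *CLDN12* overlapped between groups.

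*OCLN* encodes occludin, a MARVEL protein that runs along the claudin strands. It was at 0.470, 0.472 and 0.653 RPKM in HGC27-FN1 3′-UTR cells and at 0.795, 0.830 and 0.783 RPKM in HGC27-control cells. The groups did not overlap, with a log2 fold change of -0.53 (95% CI -0.87 to -0.18), and the limma adjusted p of 0.0619 missed the threshold. It was 0.0393 without HGC27-FN1 3′-UTR replicate 3, the highest of the 3, and 0.00299 by voom. Of the 50-base stretches of its exons, 8.80% also occur in other genes, *OCLNP1* among them. *MARVELD2* (tricellulin, 15 against 4 reads) and *MARVELD3* (51 against 36 reads) overlapped between groups and were not tested. Their rate ratios were 4.83 (95% interval 1.54 to 20) and 1.83 (1.17 to 2.88), counting error only.

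The scaffold genes split by direction. *CGN* encodes cingulin, an actin and microtubule linked protein of the tight junction plaque, on chromosome 1 (151510510 to 151538692, forward strand). It was at 6.76, 7.11 and 7.52 RPKM in HGC27-FN1 3′-UTR cells and at 10.1, 9.95 and 9.47 RPKM in HGC27-control cells. All 3 values were below all control values, and *CGN* fell by 0.46 on the log2 scale (SE 0.051, limma adjusted p = 0.00468). *CGNL1*, its paralogue paracingulin on chromosome 15 (57375967 to 57550727, forward strand), was at 1.86, 1.88 and 1.79 RPKM against 1.01, 1.004 and 1.07 RPKM. It rose with no overlap (log2 fold change 0.78, SE 0.070, limma adjusted p = 0.00246). Both calls held with any single library left out and with the block.

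Within each library the ratio of *CGNL1* to *CGN* was 0.239 to 0.274 in HGC27-FN1 3′-UTR cells and 0.1001 to 0.113 in HGC27-control cells, so *CGN* stayed the more abundant of the pair in all 6 libraries. *TJP1* encodes ZO-1, the scaffold that binds claudins and occludin to actin. It was at 7.16, 7.35 and 7.10 RPKM in HGC27-FN1 3′-UTR cells and at 7.79, 7.79 and 7.38 RPKM in HGC27-control cells. The groups lay apart by a narrow margin, and the difference did not pass (log2 fold change -0.09, 95% CI -0.18 to 0.01, limma adjusted p = 0.213). *TJP3* (ZO-3) was under 0.18 RPKM in all libraries and overlapped between groups.

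Of the 3 JAM genes, which encode immunoglobulin-like adhesion molecules, 0 passed the limma test at an adjusted p under 0.05, and voom called 2, both lower. *JAM2* had the lowest log2 fold change among the tested tight junction genes (-0.63, SE 0.17, limma adjusted p = 0.0556, voom 0.00173). *F11R* (JAM-A) was at -0.36 (limma adjusted p = 0.0894, voom 0.0335). At an unadjusted p under 0.05 both were lower, and both had all HGC27-FN1 3′-UTR libraries below the control libraries. Over 1853 exonic bases *F11R* overlaps *AL591806.3* on the same strand, and 35.9% of its 50-base stretches are shared, so its value is uncertain. *JAM3*, the most abundant JAM gene, overlapped between groups (log2 fold change 0.02, 95% CI -0.12 to 0.15), with a sign that turned when single libraries were left out.

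*PARD3*, the PAR complex scaffold that marks the apical border, lies on chromosome 10 (34109560 to 34815325, reverse strand). It was at 12.9, 13.2 and 12.9 RPKM in HGC27-FN1 3′-UTR cells and at 16.01, 14.7 and 14.2 RPKM in HGC27-control cells. The groups did not overlap, and *PARD3* fell by 0.20 on the log2 scale (SE 0.049, limma adjusted p = 0.0491). The call was lost with any single library left out (adjusted p from 0.0504 to 0.130), with the block (0.0935) and with median-ratio scaling of the libraries. The other polarity genes did not pass. *PATJ*, of the Crumbs complex, was above the control libraries in all 3 HGC27-FN1 3′-UTR libraries (log2 fold change 0.19, limma adjusted p = 0.0812, voom 0.00802). *PARD6B* and *CRB3* overlapped between groups, with *CRB3* resting on 2 to 8 reads per library and turning sign without HGC27-control replicate 3.

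Among the 15 desmosome and cornified plaque genes, 10 were tested. *JUP*, *PPL* and *PERP* were higher, *DSP* was lower, and 6 did not pass. The calls were 30% and 10% of the 10, resting on 3 genes and 1 gene, where 5.62% and 7.36% of all tested genes were called. The median log2 fold change of the 10 was 0.22, and that of all tested genes was -0.04. By the DEG criteria 2 (*JUP* and *PPL*) were upregulated and 0 were downregulated, where 1.65% and 0.815% of all tested genes were. At an unadjusted p under 0.05 in limma, 5 of these genes were higher and 1, *DSP*, was lower, with no share of all tested genes computed. *PPL* reached the minimum level only through the HGC27-FN1 3′-UTR libraries.

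**Figure D2:**
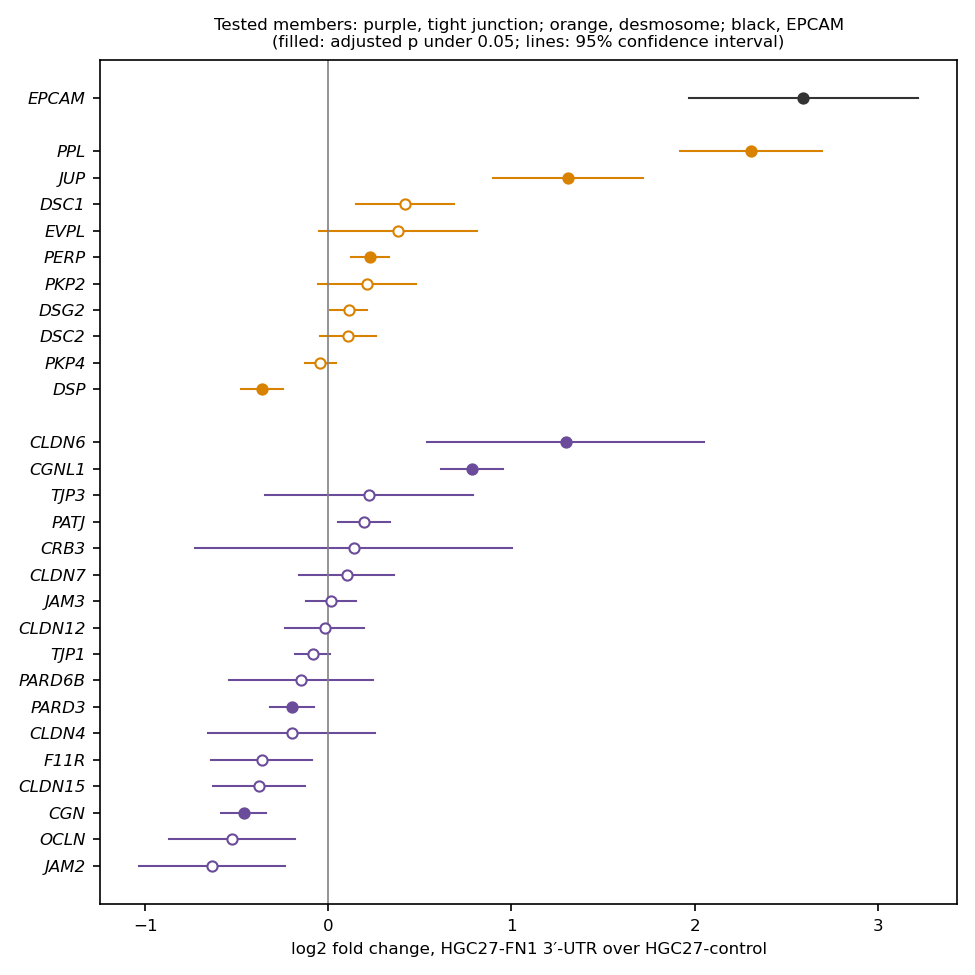
Log2 fold change of the 28 tested genes, HGC27-FN1 3′-UTR over HGC27-control cells, with 95% confidence intervals from limma. Purple marks tight junction genes, orange desmosome genes and black *EPCAM*, and filled points have an adjusted p under 0.05. The largest are *EPCAM* at 2.59 and *PPL* at 2.31, and the lowest is *JAM2* at -0.63.

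The desmosomal cadherin genes lie side by side on chromosome 18. *DSG2*, the desmoglein of simple epithelia, was at 20.0, 19.6 and 20.2 RPKM in HGC27-FN1 3′-UTR cells and at 17.7, 18.2 and 19.4 RPKM in HGC27-control cells. The groups lay apart, with the lowest HGC27-FN1 3′-UTR library just above the highest control, and the difference did not pass the test (log2 fold change 0.11, 95% CI 0.01 to 0.21, limma adjusted p = 0.131). *DSC2*, the desmocollin of simple epithelia, was at 1.99 ± 0.0556 and 1.84 ± 0.0690 RPKM (SD, n = 3). *DSC1*, better known from the upper epidermis, was at 2.85 ± 0.356 and 2.10 ± 0.201 RPKM (SD, n = 3), with all 3 HGC27-FN1 3′-UTR libraries above the controls (log2 fold change 0.42, limma adjusted p = 0.0586, voom 0.00198). It shares 504 exonic bases with genes on the opposite strand, of which *DSCAS* was at 0.162 to 0.444 RPKM. The epidermal cadherin genes *DSG1* and *DSG3* had 0 of 160169907 reads over the 6 libraries, which allows up to 0.0187 per 1000000 reads, and *DSC3* had 1 read.

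*DSP* encodes desmoplakin, the plaque protein that binds keratin filaments, on chromosome 6 (7541575 to 7586717, forward strand). It was at 10.8, 10.5 and 11.5 RPKM in HGC27-FN1 3′-UTR cells and at 14.6, 14.0 and 13.6 RPKM in HGC27-control cells. All 3 values lay below the control values, and *DSP* fell by 0.36 on the log2 scale (SE 0.047, limma adjusted p = 0.00758). *JUP* encodes plakoglobin, which links the desmosomal cadherins to desmoplakin, on chromosome 17 (41754604 to 41786931, reverse strand). It was at 0.544, 0.431 and 0.610 RPKM in HGC27-FN1 3′-UTR cells and at 0.163, 0.151 and 0.142 RPKM in HGC27-control cells. *JUP* rose with no overlap, 3.47-fold in mean RPKM (log2 fold change 1.31, SE 0.17, limma adjusted p = 0.00747).

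Both plaque calls held with any single library left out and with the block. The ratio of *JUP* to *DSP* within a library was 0.0410 to 0.0530 in HGC27-FN1 3′-UTR cells and 0.0104 to 0.0111 in HGC27-control cells, and *DSP* stayed far above *JUP* in all 6 libraries. Among the plakophilins, *PKP4* (8.97 ± 0.230 and 9.24 ± 0.0932 RPKM) and *PKP2* (1.13 ± 0.121 and 0.959 ± 0.0727 RPKM, SD, n = 3) overlapped between groups. *PKP3*, an epithelial plakophilin, was at 5, 9 and 20 reads in HGC27-FN1 3′-UTR cells and at 0, 1 and 0 reads in HGC27-control cells. That is a rate ratio of 43.8 (95% interval 7.35 to 1781, counting error only), picked out after its values were seen, for a gene that did not reach the minimum level and was not tested.

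*PPL* encodes periplakin, on chromosome 16 (4882507 to 4960741, reverse strand). It was at 0.620, 0.671 and 0.726 RPKM in HGC27-FN1 3′-UTR cells and at 0.0466, 0.0549 and 0.0667 RPKM in HGC27-control cells, from 78 to 163 reads against 8 to 19 reads per library. The mean was 11.99-fold higher with no overlap (log2 fold change 2.31, SE 0.16, limma adjusted p = 0.00109). *EVPL*, its partner envoplakin, was at 0.384 ± 0.0585 and 0.273 ± 0.0536 RPKM (SD, n = 3) and did not pass (log2 fold change 0.38, 95% CI -0.05 to 0.81, limma adjusted p = 0.217, voom 0.0207). Within a library *PPL* was 1.61 to 1.95 times *EVPL* in HGC27-FN1 3′-UTR cells and 0.140 to 0.265 times *EVPL* in HGC27-control cells, so the order of the pair was turned in every library.

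*PERP* encodes a tetraspan protein of the desmosome that p53 and p63 are known to induce, on chromosome 6 (138088505 to 138107511, reverse strand). It was at 4.19, 4.21 and 4.25 RPKM in HGC27-FN1 3′-UTR cells and at 3.57, 3.52 and 3.66 RPKM in HGC27-control cells. The groups did not overlap, and *PERP* rose by 0.23 on the log2 scale (SE 0.043, limma adjusted p = 0.0213). The call held in 1 of 6 fits with a library left out (adjusted p from 0.0497 to 0.0898) and was lost with the block (0.0752).

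*EPCAM*, on chromosome 2 (47345158 to 47387601, forward strand), was at 1.43, 1.41 and 2.60 RPKM in HGC27-FN1 3′-UTR cells and at 0.160, 0.206 and 0.257 RPKM in HGC27-control cells. Replicate 3 stood above the other two, and all 3 were above all control values. The mean was 8.73-fold higher (log2 fold change 2.59, SE 0.26, limma adjusted p = 0.00348), and the call held without any single library and with the block. EPCAM protein is known to bind claudins such as claudin-7, and *CLDN7* itself was at 1.10 ± 0.124 and 1.01 ± 0.0523 RPKM (SD, n = 3).

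**Figure D3:**
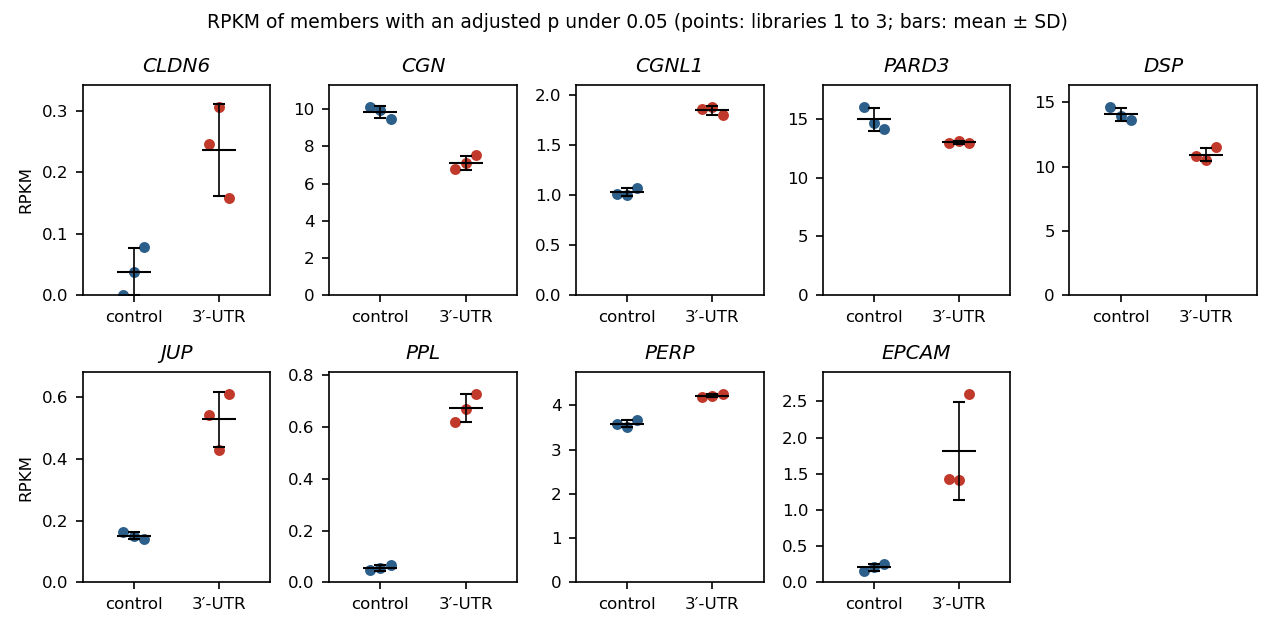
RPKM in each library of the 9 genes with an adjusted p under 0.05, each panel from 0, with points for replicates 1 to 3 and bars for the mean ± SD. *CGN*, *PARD3* and *DSP* are lower and the other 6 higher in HGC27-FN1 3′-UTR cells, and in all 9 panels the groups do not overlap.

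Side by side, the tight junction and desmosome lists differed in these descriptions, with no test of the difference. Among tested genes, 3 tight junction and 7 desmosome genes had all HGC27-FN1 3′-UTR libraries above all control libraries, and 7 and 1 had all of them below. Those above include *CLDN6* and *PPL*, which reached the minimum level only through the HGC27-FN1 3′-UTR libraries. For these genes the filter itself favours that order. Over all 23299 tested genes 14.3% lay above and 21.7% below. The summed level of the tight junction genes was 44.3 to 45.8 RPKM in HGC27-FN1 3′-UTR cells and 48.0 to 51.4 RPKM in HGC27-control cells, and that of the desmosome genes 51.0 to 52.6 and 50.04 to 51.4 RPKM. The sums are carried by abundant genes. The called genes with an absolute log2 fold change above 1, *CLDN6*, *JUP*, *PPL* and *EPCAM*, each had a control mean of at most 0.208 RPKM, and the 5 called genes above 1 RPKM in both groups changed by 0.78 or less on the log2 scale. Of the 3 called genes with an E-box or grainyhead match, *CLDN6* was higher and *CGN* and *DSP* were lower. *JUP*, *CGNL1* and *PERP* had a matched promoter without either pattern, and no promoter sequence was matched for *PARD3*, *PPL* and *EPCAM*.

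The pathway's other genes were taken from lists of further tight junction, polarity, desmosome and cornified envelope genes. Of 38 other tight junction and polarity genes in the tables, 31 were tested, 2 were higher and 5 were lower. These were 6.45% and 16.1% of the 31, where 5.62% and 7.36% of all tested genes were called. *LSR*, which marks tricellular contacts, was at 1.94 ± 0.162 against 0.953 ± 0.110 RPKM (SD, n = 3; log2 fold change 0.96, limma adjusted p = 0.00485). The 5 lower genes were *MLLT4* (afadin, log2 fold change -0.62), *LIN7B* (a Crumbs complex partner, -0.32), *PRKCZ* (an atypical protein kinase C, -0.31), *RAB13* (a small GTPase of junction traffic, -0.30) and *ARHGEF2* (a guanine nucleotide exchange factor found at junctions, -0.20), with limma adjusted p-values from 0.00300 to 0.0229.

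Of 14 other desmosome and cornified envelope genes in the tables, 6 were tested, 2 were higher and 4 did not pass. The 2 higher genes were 33.3% of the 6, where 5.62% of all tested genes were higher. *TGM1*, the transglutaminase that cross-links envoplakin and periplakin in the cornified envelope, was at 4.88 ± 0.519 against 1.53 ± 0.220 RPKM (SD, n = 3; log2 fold change 1.62, limma adjusted p = 0.00130). *PNN* (pinin, a desmosome-associated and nuclear protein) was at 242 ± 12.8 against 190 ± 13.5 RPKM (0.35, limma adjusted p = 0.0183). The 6 log2 fold changes ran from 0.03 to 1.62, and 1 of the 6 genes, *CDSN* (corneodesmosin), reached the minimum level only through the HGC27-FN1 3′-UTR libraries. The cornified envelope genes *IVL*, *FLG*, *SPRR1A*, *SPRR1B*, *SPRR2A* and *SPRR2D*, which mark terminal squamous cells, were at or near 0 and not tested.

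Epithelial markers also differed between the groups. Of 25 glandular epithelial markers in the tables, 15 were tested and 11 were higher and 4 did not pass. The 11 were 73.3% of the 15, where 5.62% of all tested genes were higher. Of the 15, 6 reached the minimum level only through the HGC27-FN1 3′-UTR libraries. The summed level of the 25 markers was 27.9 to 38.7 RPKM in HGC27-FN1 3′-UTR cells and 5.68 to 6.06 RPKM in HGC27-control cells. *KRT8*, *KRT18* and *KRT19*, keratins of simple epithelium, rose from 2.15 to 12.2, from 0.179 to 4.87 and from 0.0747 to 1.72 RPKM, and *CDH1* from 0.126 to 0.703 RPKM, with limma adjusted p-values from 0.000430 to 0.00316. Chosen after their values were seen, *CTSE* (cathepsin E) rose from 0.0748 to 2.46 RPKM (log2 fold change 3.90, limma adjusted p = 0.000707) and *LYZ* (lysozyme) from 0.185 to 4.06 RPKM (log2 fold change 3.88, limma adjusted p = 0.000409), both of them made in stomach epithelium, whereas the gastric markers *MUC5AC*, *TFF1* and *PGC* were at or near 0 in both groups.

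Of 8 squamous markers 2, *KRT4* and *SFN*, were tested and both were higher, where 5.62% of all tested genes were. *KRT4* had a mean of 1.31 against 0.382 RPKM and *SFN* of 3.62 against 1.19 RPKM. The summed level of the 8 was 4.56 to 5.91 against 1.54 to 1.73 RPKM. *KRT5*, *KRT13*, *KRT14*, *TP63* and *IVL* were under 0.1 RPKM in every library, and *KRT6A* was at 0. Of 12 mesenchymal markers 10 were tested, 6 were higher and 4 did not pass, and the summed level was 473 to 499 against 404 to 466 RPKM. The 6 were 60% of the 10, where 5.62% of all tested genes were higher. Chosen after its values were seen, *SNAI2*, a SNAI repressor, was at 4.56 ± 0.281 against 2.46 ± 0.368 RPKM (SD, n = 3; log2 fold change 0.87, limma adjusted p = 0.00718). The other 5 higher markers were *TWIST1*, *COL1A1*, *COL1A2*, *SPARC* and *FN1*. *FN1* is the gene whose 3′-UTR was overexpressed, so its rise is no separate marker result. The *FN1* call was also lost with any single library left out. HGC27-FN1 3′-UTR replicate 3 was the highest of its group for *EPCAM* (1.43 times the group mean), *PKP3* (1.51 times), *JUP* (1.15 times) and *PPL* (1.08 times). Replicate 3 was also the highest for *KRT8* (1.19 times), *KRT18* (1.40 times) and *KRT19* (1.41 times). It was the lowest for *CLDN6* (0.666 times) and *CDH1* (0.860 times). *CGNL1* stayed within 0.974 to 1.02 times and *PERP* within 0.994 to 1.01 times the group mean. The part of the epithelial markers in the changes of the junction genes was not tested.

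**Figure D4:**
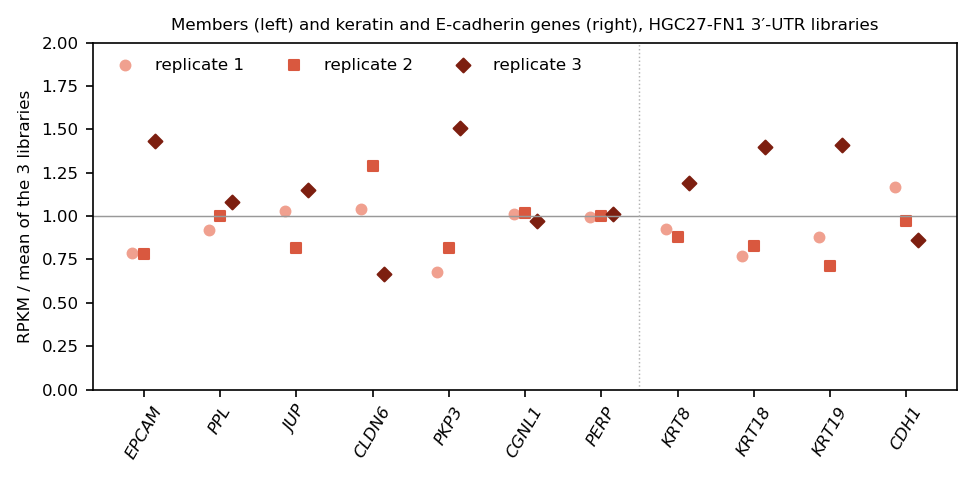
RPKM of each HGC27-FN1 3′-UTR library divided by the mean of the 3, for 7 junction genes on the left and *KRT8*, *KRT18*, *KRT19* and *CDH1* on the right. Replicate 3 is highest for *EPCAM*, *PKP3*, *JUP*, *PPL* and the 3 keratin genes, and *CGNL1* and *PERP* stay near 1.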

How the data were processed

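Groups were taken from the sample labels, with 3 libraries each. The study prepared strand-specific mRNA libraries. The submitters' processing notes name Trimmomatic 0.36, STAR 2.5.3a, featureCounts and Subread 1.5.1 with GRCh38, and the annotation release is not given in the sources used here. The authors deposited 1 table of RPKM values for each library. Reads were recovered as whole multiples of 1 read (tolerance 0.1 read), and 100% of values came out whole. In pairs of libraries of 1 group they differed by more than sampling noise (chi-square per gene 2.50 to 5.66).

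Genes with at least 0.1 RPKM in 3 libraries entered the test. The model, fitted with limma 3.58.1 under R 4.3.3 to log2(RPKM + 0.1), held only the group and used a trended prior, two-sided, with Benjamini-Hochberg adjustment over all 23299 tested genes. The pseudocount shrinks the fold changes of low genes. An exact permutation test of 3 against 3 libraries cannot go below p = 0.1 and was not used. Intervals of rate ratios are exact and conditional on the summed reads. Alternatives were the pseudocount, the filter, a replicate block, each library left out, median-ratio scaling, limma's voom on recovered reads and a prior without trend. The main fit was also run on simulated reads with large changes in genes above the lowest levels, which does not test low genes or small changes. The genes, lists and tests were chosen with earlier results of these data known. Values in every library are given for genes with an adjusted p under 0.05 and for *CLDN1*, *OCLN*, *TJP1*, *DSP*, *JUP*, *DSG2* and *EPCAM*, and up to 5 other pathway genes in each direction are named by fold change. One gene that this rule names is not reported here. Overlaps and shared 50-base stretches were read from GENCODE release 29, in which 39 of the 43 genes have the deposited start and end. Other software was matplotlib 3.10.9, numpy 2.4.6, pandas 2.3.3 and Python 3.11.15.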

Additional observations from a re-analysis of the deposited data

How the results depend on the processing

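Of the 9 called genes, 6 (*CGN*, *CGNL1*, *DSP*, *JUP*, *PPL* and *EPCAM*) kept their call in all 6 fits with a library left out and with the replicate block, and all 9 were called by voom. Replicate numbers did not pair the libraries (correlations of deviations 0.00244, 0.0211 and 0.0103). The share of all tested genes called was computed for the main fit alone. Counts under the other settings therefore cannot be set against a background. With the replicate block, 1 tight junction gene was higher and 1 lower, and 2 desmosome genes were higher and 1 lower. A pseudocount of 0.01 and no filter also gave 1 higher and 1 lower tight junction gene, and without the filter the tight junction median was 0.016. A pseudocount of 1 left 0 upregulated DEGs in both lists and a desmosome median of 0.120. A minimum mean of 1 RPKM removes the low genes by construction and left 1 higher tight junction gene, 0 upregulated DEGs in both lists and medians of -0.018 (tight junction) and 0.111 (desmosome). Median-ratio scaling left 1 lower tight junction gene. Voom gave 6 lower tight junction genes, with *CLDN6*, *CGNL1* and *PATJ* higher. It gave 5 higher desmosome genes, with *DSP* lower. The share of all tested genes was not computed for voom. With single libraries left out, 1 tight junction gene was higher and 1 to 3 were lower (3 without HGC27-FN1 3′-UTR replicate 3), and the medians ran from -0.197 (without HGC27-control replicate 3) to -0.043 for the tight junction and from 0.188 to 0.265 (without HGC27-FN1 3′-UTR replicate 1) for the desmosome genes. The log2 fold changes of *JAM3* (-0.014 to 0.062), *CRB3* (-0.197 to 0.443) and *CLDN12* (-0.077 to 0.034) took both signs with libraries left out, and that of *CLDN12* was 0.014 with median-ratio scaling. The causes of these shifts were not tested, other than by construction where stated. With 3 libraries a group, depth limits the genes that were not tested, which rest on 25 reads per library or fewer.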
